A study of Mus musculus with 163 samples.

Results

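The 10 genes described here set the length and the tapered base of stereocilia, and are Eps8, Eps8l2, Twf2, Capzb, Tprn, Grxcr1, Grxcr2, Clic5, Rdx and Ptprq. They were chosen by name as tip, capping and taper region genes, by a rule that uses no measured value but that was written with earlier results of these data known, and each of the 10 was found among the 55291 genes counted. Stereocilia are the actin-filled protrusions of the hair bundle, with which the hair cells of the cochlea sense sound. Each holds a bundle of parallel filaments whose growing barbed ends lie at the tip, where capping and bundling proteins act on length. At the other end the shaft narrows to a taper, and proteins gathered there tie the membrane to the actin core. Loss of function of several of these genes is known to cause deafness in people or mice.

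Full-length cDNA reads had been counted in 163 single cochlear hair cells of mice at postnatal day 7 (P7), of which 82 were mutant (Exp) and 81 control (Ctrl). There were 56 Exp outer hair cells (OHCs), 43 Ctrl OHCs, 26 Exp inner hair cells (IHCs) and 38 Ctrl IHCs. The genotype of the Exp cells was Atoh1P2A-Cre/P2A-Tdtomato; Rbm24flox/flox per the series design, while the sample labels write Atoh1P2A-Cre/P2A-Tdtomato/+; Rbm24flox/flox, and the sources thus differ on whether a further unmodified allele is meant. In these animals Cre driven from the Atoh1 locus, active in hair cell precursors, deletes the gene of the RNA-binding protein Rbm24. The Ctrl cells were Atoh1P2A-Tdtomato/+, with 1 unmodified Atoh1 allele and no Cre, so that Cre, and the second modified Atoh1 allele if the series design is right, cannot be told apart from the loss of Rbm24. Cells of both genotypes carried tdTomato from Atoh1 and were picked by hand for red fluorescence. No label named an animal, so each group was 1 sample of cells, cells were not replicates, and no test was run.

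Levels are counts summed over the cells of a group per 1000000 counts of that group (CPM), and a single cell's level is CPM within that cell. Intervals are 95% exact Poisson intervals for levels, exact conditional binomial (Clopper-Pearson) intervals for log2 ratios and exact binomial intervals for shares of cells. All cover counting error only, not the spread between animals, and since no molecular identifiers were used, reads do not stand for separate molecules. A gene was counted as higher or lower where the group levels differed by 2-fold or more and averaged 1 CPM or more.

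The sequences of Tprn and Clic5, which differed in opposite directions between the genotypes, are shown first. The promoters run from 250 bases before to 50 bases after the start in RefSeq (GRCm38.p6), at chr2:25262348-25262647 on the plus strand for Tprn and chr17:44188322-44188621 on the plus strand for Clic5. Capitals mark CANNTG, the general E-box that basic helix-loop-helix factors such as Atoh1 recognise.
Tprn promoter: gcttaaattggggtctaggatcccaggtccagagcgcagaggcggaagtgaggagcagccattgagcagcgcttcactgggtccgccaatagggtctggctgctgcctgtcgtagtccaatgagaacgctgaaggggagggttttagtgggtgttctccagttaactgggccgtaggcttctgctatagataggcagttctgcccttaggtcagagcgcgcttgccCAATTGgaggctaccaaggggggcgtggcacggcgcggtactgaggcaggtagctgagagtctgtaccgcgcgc
Clic5 promoter: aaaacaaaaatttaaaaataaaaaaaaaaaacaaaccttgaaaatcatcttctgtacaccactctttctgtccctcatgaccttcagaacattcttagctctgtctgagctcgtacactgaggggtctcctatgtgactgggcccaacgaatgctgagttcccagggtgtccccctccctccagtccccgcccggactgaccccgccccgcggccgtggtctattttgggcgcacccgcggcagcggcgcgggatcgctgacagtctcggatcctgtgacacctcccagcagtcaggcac
The Tprn window held 1 CANNTG match and the Clic5 window 0, where 72.3% of the 32851 RefSeq promoters held at least 1 (the motif reads alike on both strands). Neither held CAGCTG, an E-box within CANNTG that 16.3% of promoters held, nor TATAAA on either strand, which 13.6% held. The GC content was 59.3% for Tprn and 54.3% for Clic5, against a median of 52.7% over all promoters, and each window had 16 CG pairs against a median of 7.00. RefSeq promoters were matched for 6 of the 10 genes. A match is a run of letters and not a measured site.

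Rbm24 is known to prefer GTGTG (as GUGUG in RNA), and the 25-base windows below hold that motif in capitals on the sense strand of the transcripts (GRCm38).
Tprn coding, chr2:25264021-25264045: acacagacaaGTGTGttaggtggca
Tprn 3′ UTR, chr2:25269447-25269471: ttagccccagGTGTGgtggtcctgg
Clic5 3′ UTR, chr17:44276171-44276195: tcacatgagaGTGTGtgtgtgtgtg
The Clic5 window opens a run of repeated GTs. With overlapping matches counted, the Clic5 transcript held 29 matches, all in its 3′ UTR, or 4.95 per kb, and 96.0% of the 21901 protein-coding transcripts had no more per kb. Most of the 29 overlap one another within that single run, starting at transcript positions 1871 to 1915, so they are not 29 separate sites. Tprn had 4, of which 3 were coding and 1 was in the 3′ UTR, or 1.44 per kb against a median of 1.36. Eps8 had 6, at 1.31 per kb. The motif is common: 87.6% of all transcripts and 9 of the 10 genes held it, and Grxcr2 had 0.

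Across the cells, total counts ran from 5.47e+06 to 1.81e+07, with group medians of 1.28e+07 in Exp OHCs, 9.09e+06 in Ctrl OHCs, 1.42e+07 in Exp IHCs and 8.67e+06 in Ctrl IHCs. A level of 10 CPM therefore stood for at least 54.7 reads in any cell. Rbm24 was at 0.212 CPM in Exp OHCs against 315 CPM in Ctrl OHCs, and at 1.51 CPM in Exp IHCs against 431 CPM in Ctrl IHCs, with every Exp cell under every Ctrl cell of its type. The 6 general hair cell markers were at 1 CPM or more in all groups (Pou4f3 at 389 to 626 CPM), but not all at like levels. In Exp OHCs against Ctrl OHCs, Atoh1 was 2-fold or more higher and Gfi1 and Otof were 2-fold or more lower. Between Exp and Ctrl IHCs all 6 were within 2-fold. The OHC marker Slc26a5 was at 27.5 CPM in Exp OHCs, 376 CPM in Ctrl OHCs, 0.825 CPM in Exp IHCs and 0.640 CPM in Ctrl IHCs. It was under 10 CPM in 33 of 56 Exp OHCs, with a median of 2.64 CPM and 22 cells at 0, and in 2 of 43 Ctrl OHCs, and it was at 0 in 22 of 26 Exp IHCs. Summed over 5 OHC markers, the median cell had 256 CPM in Exp OHCs and 6031 CPM in Ctrl OHCs. In IHCs that median was 215 CPM in Exp and 415 CPM in Ctrl. By this sum the median Ctrl OHC was far above the median Ctrl IHC, whereas the median Exp OHC was near the median Exp IHC. The sum follows the highest markers, however. Of the 5, Slc26a5, Ocm, Ikzf2 and Aqp11 were 2-fold or more higher in Exp OHCs than in Exp IHCs, where 14.0% of all genes were. The remaining 1 was lower, and the median log2 ratio of the 5 was 4.03. The 5 IHC markers had a median sum of 520.4 CPM in Exp IHCs and 1139.8 CPM in Ctrl IHCs, against 53.3 CPM in Exp OHCs and 72.3 CPM in Ctrl OHCs. They did not all go 1 way. Slc17a8, Fgf8 and Tbx2 were 2-fold or more lower in Exp OHCs than in Exp IHCs, where 14.5% of all genes were. The other 2 were higher, Slc7a14 by 2-fold or more, and the median log2 ratio was −6.17. In Exp OHCs against Ctrl OHCs, Tbx2 was 2-fold or more higher and Slc17a8 2-fold or more lower.

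The makeup of the groups also differed with genotype. Cells here called Y-positive, which had Y-linked transcripts at 1 CPM or more and Xist under 1 CPM, numbered 16 of 56 Exp OHCs, 32 of 43 Ctrl OHCs, 7 of 26 Exp IHCs and 26 of 38 Ctrl IHCs. Those called Xist-positive, which had the reverse, numbered 37, 10, 19 and 12 in the same order. Cells at 40 CPM or more of the transcript Gm15772, a threshold taken from earlier work on these data, numbered 40, 18, 19 and 15. Those low in it numbered 16, 25, 7 and 23. Among Exp cells the low sets were as large as the Y-positive sets. For all 10 genes the 2 sets gave the same ratio of Exp OHCs to Exp IHCs. Like values in Y-positive cells and in cells low in Gm15772 are therefore not separate evidence. For the 10 genes, genotype ratios within these sets are given where they end a 2-fold call or move a value by over 1.5 times. For related genes, ranges over the alternatives, which are these sets, other scalings, the median of single cells and leaving out cells, or values in single sets are given. Their part in the genotype differences was not tested.

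In Ctrl cells the 10 genes covered a wide range of levels. Per kb of exon, which lets genes be compared, Ctrl OHCs had 359 CPM of Grxcr2, 256 CPM of Grxcr1, 214 CPM of Twf2 and 101 CPM of Capzb. Ptprq followed with 45.4 CPM per kb, Rdx with 41.5 and Eps8l2 with 38.5, and the lowest were Clic5 with 8.92, Tprn with 7.21 and Eps8 with 4.54. The exon length is the union over all annotated isoforms and understates genes with long alternative ends. The plot of single cells shows the same division: the first 7 were found at 10 CPM or more in at least 88.5% of the cells of each group, whereas Eps8, Clic5 and Tprn were present in some cells and absent or nearly absent in others. These 3, the lowest per kb, are also the genes whose genotype ratios were largest, and a few cells weigh heavily on their group levels. Their single highest cell held up to 26.9% of the counts of a group (Clic5 in Exp IHCs).

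**Figure D1:**
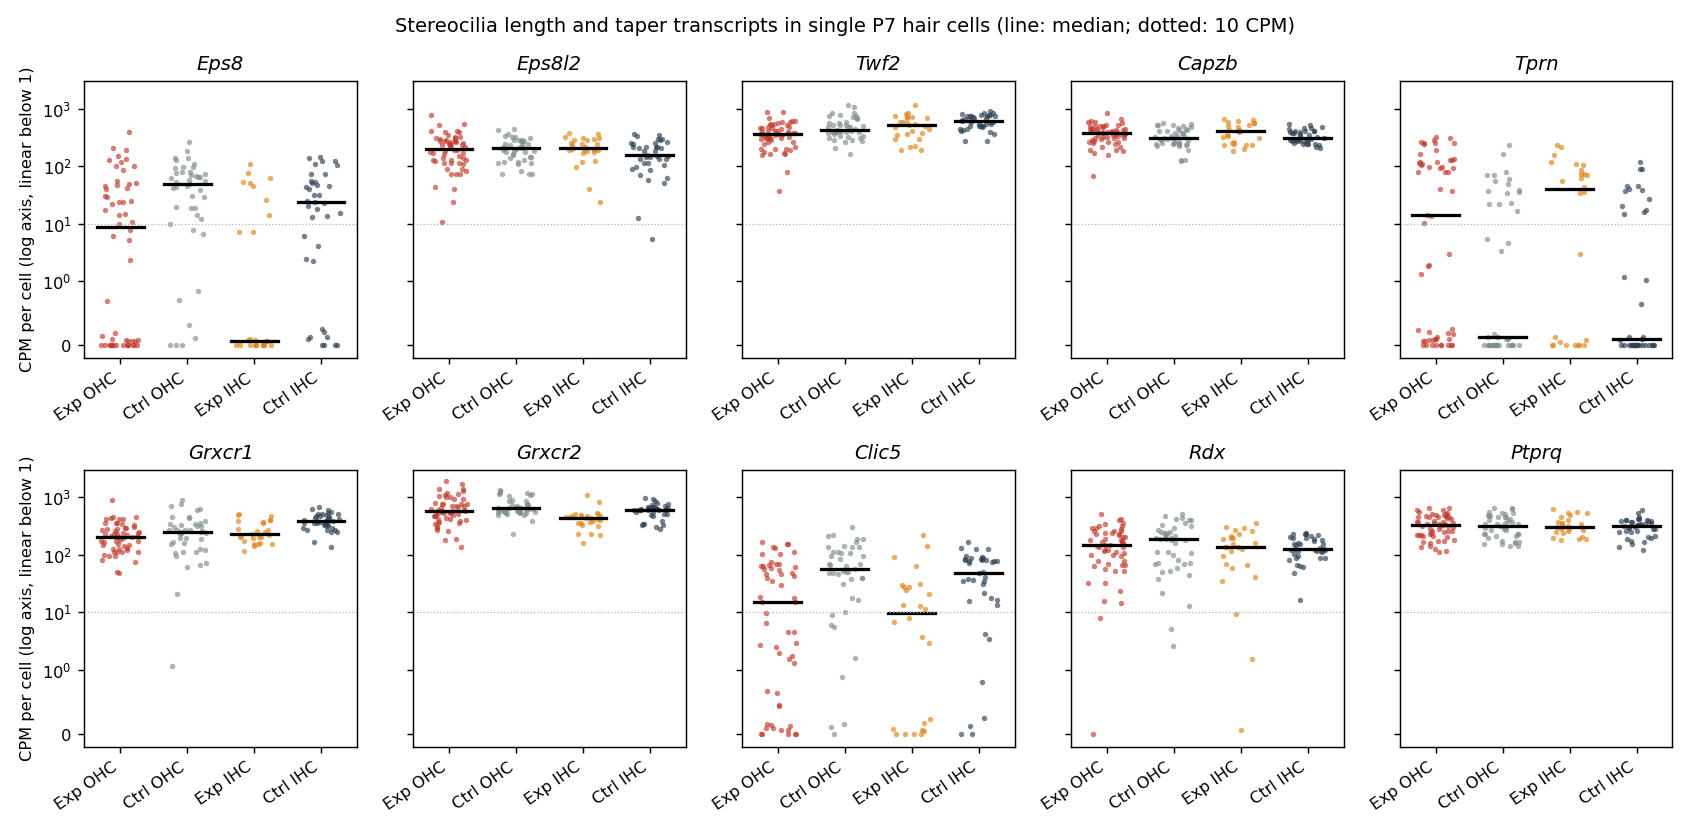
CPM of each of the 10 genes in every single cell (1 point per cell, vertical axis linear near 0 and logarithmic above), by group from left to right as Exp OHC, Ctrl OHC, Exp IHC and Ctrl IHC. The line is the median cell and the dotted line is 10 CPM; Eps8, Tprn and Clic5 have many cells at or near 0, and the ranges of Exp and Ctrl cells overlap for every gene.

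Between genotypes, Tprn was the one gene of the 10 that was 2-fold or more higher in Exp OHCs, where 18.4% of the 14588 genes tested were, and Clic5 the one that was 2-fold or more lower, where 13.1% were. In IHCs Tprn was again the one gene that was higher, where 18.8% of 14557 genes were, and Eps8 the one that was lower, where 11.7% were. All 10 averaged over 10 CPM in both comparisons, and among genes at 10 CPM or more 11.8% were higher and 7.45% lower in OHCs, and 11.1% were higher and 5.68% lower in IHCs. Tprn was 2-fold or more higher in both cell types, as were 9.11% of genes, and 0 of the 10 were 2-fold or more lower in both, where 5.21% of genes were. Under TMM factors Clic5 was 2-fold lower in both, at −1.08 in each, and it also was under median-of-ratios factors (−1.11 in OHCs and −1.05 in IHCs) and a total of protein-coding nuclear genes (−1.08 and −1.04). These counts are near the background. The median log2 ratio of the 10 was −0.14 in OHCs and −0.06 in IHCs, beside 0.06 and 0.11 over all genes. No gene of the 10 had ranges of Exp and Ctrl cells that were apart, while 0.00685% of all genes did in OHCs and 0.0275% in IHCs.

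**Figure D2:**
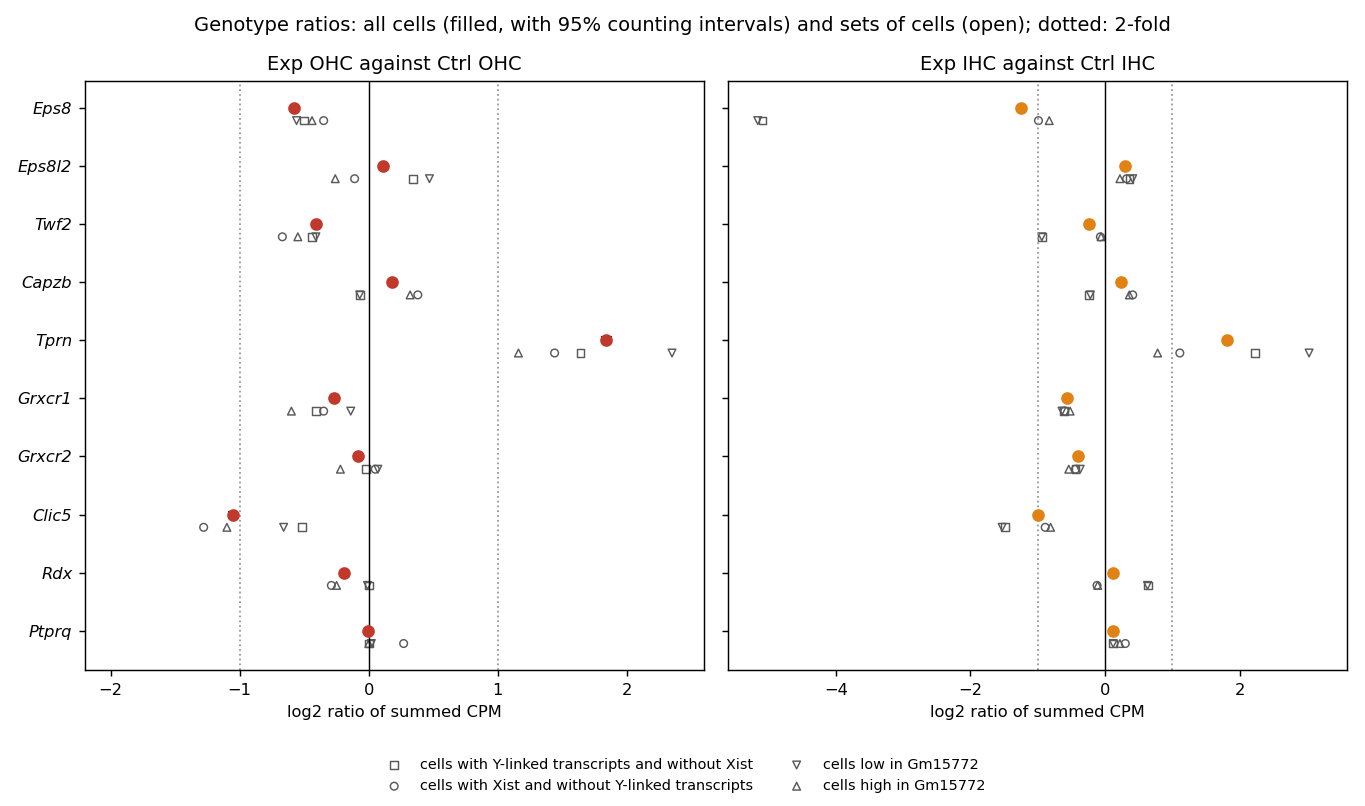
Log2 ratio of summed CPM, Exp over Ctrl, for the 10 genes (left, OHCs; right, IHCs, on a wider axis). Filled points are all cells, with 95% counting intervals mostly hidden by the points, open marks are sets of cells split by sex-linked transcripts or by Gm15772, and dotted lines mark 2-fold; Tprn lies to the right and Clic5 and Eps8 to the left in both cell types, and the open marks are most spread for Tprn in both and for Eps8 in IHCs.

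Among the tip and capping genes, Eps8 differed most. It encodes an actin-capping and bundling protein that is carried to the tips of the tallest stereocilia by myosin XVa and whirlin. The gene spans chr6:137477245-137654876 on the minus strand (GRCm38, Ensembl ENSMUSG00000015766.14). Eps8 was at 37.7 CPM in Exp OHCs (37.2 to 38.1) against 56.1 CPM in Ctrl OHCs (55.4 to 56.9), a log2 ratio of −0.58 (−0.60 to −0.55). In single Exp OHCs it ran from 0 through a median of 8.91 to 397 CPM, against 0, 49.0 and 263 CPM in Ctrl OHCs. The highest cell of all was thus an Exp OHC, although 23.2% of Exp OHCs were above the median Ctrl OHC.

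In IHCs Eps8 was at 15.7 CPM in Exp cells (15.3 to 16.1) against 37.2 CPM in Ctrl cells (36.6 to 37.9), a log2 ratio of −1.25 (−1.29 to −1.20), or 2.37-fold lower. Single Exp IHCs ran from 0 through a median of 0.0727 to 109 CPM, against 0, 23.4 and 146 CPM in Ctrl IHCs. The ranges overlapped, with 26.9% of Exp IHCs above the median Ctrl IHC. The share of cells at 10 CPM or more also differed, though a cell under it may lack the transcript or have lost it in capture. Eps8 was at 10 CPM or more in 28 of 56 Exp OHCs (50.0%, 36.3 to 63.7) against 33 of 43 Ctrl OHCs (76.7%, 61.4 to 88.2). The same held for 8 of 26 Exp IHCs (30.8%, 14.3 to 51.8) against 25 of 38 Ctrl IHCs (65.8%, 48.6 to 80.4).

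Among cells at 10 CPM or more, the median Eps8 level was 46.3 CPM in Exp OHCs against 63.6 CPM in Ctrl OHCs, while it was 51.9 CPM in Exp IHCs against 44.4 CPM in Ctrl IHCs. The 8 Exp IHCs at 10 CPM or more of Eps8 were therefore at a level like that of such Ctrl IHCs. In the 7 Y-positive Exp IHCs against the 26 Y-positive Ctrl IHCs, the log2 ratio was −5.09, and in Xist-positive cells it was −0.99. In IHCs low in Gm15772 it was −5.16, and in those high in it −0.83. Over OHCs with supporting cell markers under 50 CPM in sum, it was −0.13. The sign was kept in each of these sets.

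Eps8l2, the paralog of Eps8 that is known for maintaining stereocilia in adult mice, was at 223 CPM in Exp OHCs against 207 CPM in Ctrl OHCs (log2 ratio 0.11), and at 213 CPM in Exp IHCs against 174 CPM in Ctrl IHCs (0.29). Single Exp OHCs ran from 10.7 through a median of 202 to 779.6 CPM, against 71.8, 207 and 433 CPM in Ctrl OHCs. In IHCs the cells ran over 23.4, 207 and 376 CPM in Exp and 5.50, 154 and 364 CPM in Ctrl, with 80.8% of Exp IHCs above the median Ctrl IHC. The medians were alike in OHCs and higher in Exp among IHCs, with ranges that overlapped. The ratio in OHCs ran from −0.26 to 0.47 over the alternatives and so had no fixed direction. Eps8l2 shares 32.2% of its exon bases with B230206H07Rik on the opposite strand. That transcript stayed between 0.0476 and 1.10 CPM, and the strand setting of the counting is not given in the sources used here.

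Twf2 encodes twinfilin 2, which binds actin monomers and capping protein and is found at the tips of the shorter rows. It was at 374 CPM in Exp OHCs against 496 CPM in Ctrl OHCs (log2 ratio −0.41), and at 515 CPM in Exp IHCs against 607 CPM in Ctrl IHCs (−0.24). Single OHCs ran over 37.5, 358 and 877 CPM (lowest, median, highest) in Exp and 161, 422 and 1170.3 CPM in Ctrl. Single IHCs ran over 192, 509 and 1149 CPM in Exp and 273, 601 and 907 CPM in Ctrl. The Exp medians were lower in both cell types, and 32.1% of Exp OHCs were above the median Ctrl OHC. In Y-positive IHCs, and in those low in Gm15772, the log2 ratio was −0.94.

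Capzb, the beta subunit of the capping protein that closes barbed ends, was at 378 CPM in Exp OHCs against 333 CPM in Ctrl OHCs (log2 ratio 0.18), and at 393 CPM in Exp IHCs against 332 CPM in Ctrl IHCs (0.24). Single OHCs ran over 67.6, 373 and 852 CPM in Exp and 122, 307 and 561 CPM in Ctrl. Single IHCs ran over 180.1, 401 and 654 CPM in Exp and 209, 306 and 549 CPM in Ctrl. The Exp medians were higher in both cell types and the ranges overlapped. Over all cells Twf2 and Capzb, whose products bind each other, thus had ratios of opposite sign in each cell type, all under 2-fold. In Y-positive cells the Capzb ratio turned to −0.07 in OHCs and −0.24 in IHCs, and in cells low in Gm15772 to −0.07 and −0.22, so that both genes were lower in Exp there.

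Among the taper genes, Tprn was higher in Exp and Clic5 lower. Tprn encodes taperin, an actin-binding protein of the taper region, in a short gene at chr2:25262618-25269885 on the plus strand (GRCm38, ENSMUSG00000048707.9). It was at 75.8 CPM in Exp OHCs (75.2 to 76.4) against 21.1 CPM in Ctrl OHCs (20.7 to 21.6), a log2 ratio of 1.84 (1.81 to 1.88), or 3.59-fold higher. In IHCs it was at 52.9 CPM in Exp cells (52.2 to 53.7) against 15.1 CPM in Ctrl cells (14.7 to 15.5), a log2 ratio of 1.81 (1.76 to 1.85), or 3.50-fold higher. The ratios in the 2 cell types differed by 0.04 (−0.02 to 0.09).

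Single Exp OHCs ran over 0, 14.1 and 319 CPM of Tprn (lowest, median, highest), against 0, 0.132 and 231 CPM in Ctrl OHCs. Single Exp IHCs ran over 0, 39.4 and 229 CPM, against 0, 0.0937 and 116 CPM in Ctrl IHCs. The ranges overlapped from 0 upward, and the median Ctrl cell of either type was near 0. Tprn was at 10 CPM or more in 30 of 56 Exp OHCs (53.6%, 39.7 to 67.0) against 16 of 43 Ctrl OHCs (37.2%, 23.0 to 53.3). The transcript was so in 15 of 26 Exp IHCs (57.7%, 36.9 to 76.6) against 13 of 38 Ctrl IHCs (34.2%, 19.6 to 51.4). The intervals of these shares overlapped in both cell types.

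Few cells were in between: 4 Exp OHCs, 3 Ctrl OHCs, 1 Exp IHC and 2 Ctrl IHCs lay from 1 to under 10 CPM of Tprn, while 22, 24, 10 and 23 cells were under 1 CPM in the same order. Where Tprn was present, its level was also higher in Exp. Among cells at 10 CPM or more the median was 115 CPM in Exp OHCs against 43.8 CPM in Ctrl OHCs, while it was 73.6 CPM in Exp IHCs against 38.3 CPM in Ctrl IHCs. The single highest cell held 9.12% of the Tprn counts of Exp OHCs and 21.2% of those of Ctrl OHCs, and 14.6% and 20.5% in Exp and Ctrl IHCs. With the top cell of each group left out, the log2 ratios were 2.09 in OHCs and 1.86 in IHCs.

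The size of the Tprn ratio varied between sets of cells while its sign did not. In cells high in Gm15772 it was 1.16 in OHCs and 0.78 in IHCs, under 2-fold. In cells low in Gm15772 it was 2.35 in OHCs and 3.03 in IHCs. In Xist-positive cells it was 1.44 in OHCs and 1.11 in IHCs. A Tprn level higher in Exp than in Ctrl was thus seen in every set.

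Clic5 encodes a chloride intracellular channel family protein of the taper that forms a complex with radixin, taperin and Ptprq, and lies at chr17:44188584-44280172 on the plus strand (GRCm38, ENSMUSG00000023959.10). It was at 37.8 CPM in Exp OHCs (37.3 to 38.2) against 78.3 CPM in Ctrl OHCs (77.5 to 79.2), a log2 ratio of −1.05 (−1.08 to −1.03), or 2.07-fold lower. In IHCs it was at 28.3 CPM in Exp cells (27.7 to 28.8) against 56.1 CPM in Ctrl cells (55.3 to 56.9), a log2 ratio of −0.99 (−1.02 to −0.95). That is 1.99-fold lower, just short of the 2-fold limit, so the call in 1 cell type and not in the other marks no difference between them. The 2 ratios differed by −0.06.

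Single Exp OHCs ran over 0, 15.0 and 168 CPM of Clic5, against 0, 57.5 and 302 CPM in Ctrl OHCs. Single Exp IHCs ran over 0, 9.82 and 221 CPM, against 0, 48.5 and 164 CPM in Ctrl IHCs. Low cells were more frequent in Exp, and 30.4% of Exp OHCs and 15.4% of Exp IHCs were above the median Ctrl cell of their type. Clic5 was at 10 CPM or more in 29 of 56 Exp OHCs (51.8%, 38.0 to 65.3) against 35 of 43 Ctrl OHCs (81.4%, 66.6 to 91.6). That share was 13 of 26 in Exp IHCs (50.0%, 29.9 to 70.1) against 31 of 38 in Ctrl IHCs (81.6%, 65.7 to 92.3). Among those cells the median was 61.5 CPM in Exp OHCs against 69.9 CPM in Ctrl OHCs, while it was 28.2 CPM in Exp IHCs against 77.5 CPM in Ctrl IHCs. So in OHCs the difference lay mainly in the number of cells, and in IHCs in both.

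For Clic5 in OHCs the log2 ratio was −0.52 in Y-positive cells and −0.66 in cells low in Gm15772, both under 2-fold. It was −1.28 in Xist-positive cells and −1.10 in cells high in Gm15772. In IHCs it was −1.33 with the top cell of each group left out and −0.76 over cells with supporting cell markers under 50 CPM. It was also −1.49 in Y-positive IHCs and −1.53 in those low in Gm15772, past 2-fold. The sign was the same throughout.

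**Figure D3:**
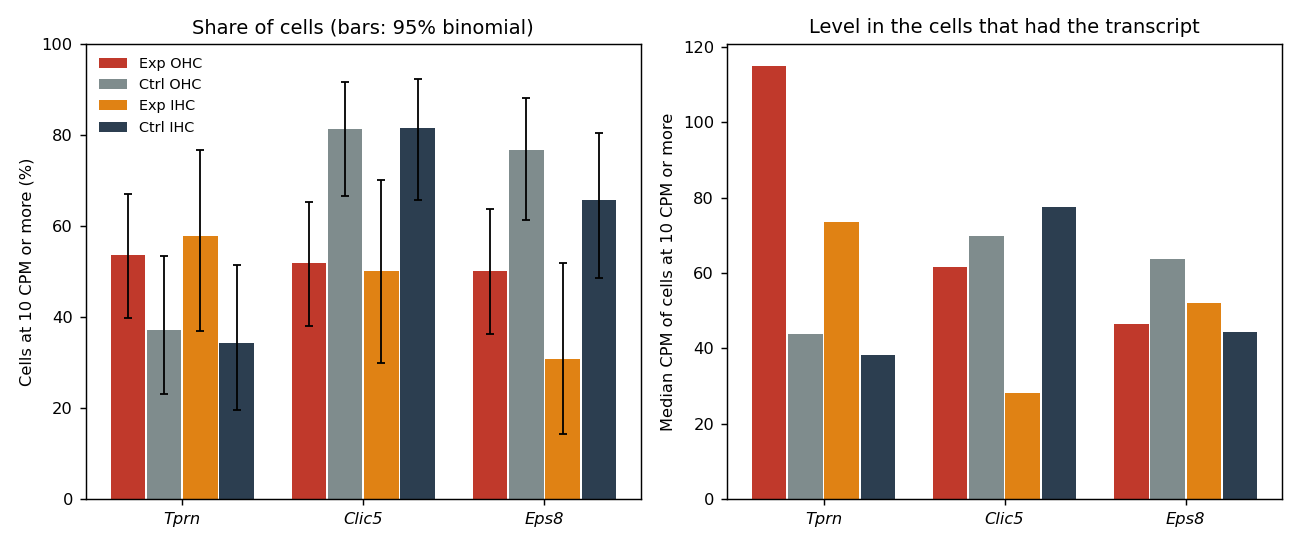
Left, percentage of cells at 10 CPM or more of Tprn, Clic5 and Eps8 in the 4 groups, with exact binomial 95% intervals as bars; right, the median CPM of those cells. The share of cells with Clic5 is 51.8% in Exp OHCs against 81.4% in Ctrl OHCs, and the Tprn level of cells that have it is 115 CPM against 43.8 CPM.

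By the share of cells at 10 CPM or more, with a limit of 15 percentage points set after the values were seen, Tprn was higher in Exp OHCs and Exp IHCs, by 16.4 and 23.5 points, and Clic5 and Eps8 were lower. Over all genes 8.77% were higher by that limit in OHCs and 11.7% lower, and in IHCs 9.40% were higher and 11.7% lower. Markers of supporting cells, the other epithelial cells of the organ of Corti, were summed for each cell over 10 genes. In OHCs the sum ran over 0, 0.823 and 330.0 CPM in Exp (lowest, median, highest) and 0, 9.57 and 222 CPM in Ctrl. In IHCs the sum ran over 0, 16.7 and 159 CPM in Exp and 0, 1.57 and 794 CPM in Ctrl. It was at 50 CPM or more in 16, 14, 5 and 6 cells in the same order. Gjb6 was at 0 in Exp OHCs, Epyc in both Ctrl groups, and Gjb6 and Slc1a3 in Exp IHCs. The single markers did not all follow the sum. Of the 6 averaging 1 CPM or more in OHCs, 4 were higher and 2 lower in Exp, with a median log2 ratio of 0.80. Prox1, Hes5 and Otoa were 2-fold or more higher, where 18.4% of all genes were. Of 6 in IHCs, 3 were higher and 3 lower. Otoa was 2-fold or more higher there, and Gjb2, Gjb6 and Slc1a3 2-fold or more lower. Without the cells at 50 CPM or more, the log2 ratio of Tprn was 2.01 in OHCs and 1.63 in IHCs.

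The sum of 5 neuron markers ran over 172, 601 and 1305 CPM in Exp OHCs against 0, 150.1 and 718 CPM in Ctrl OHCs. In IHCs it ran over 351, 1123 and 2358 CPM in Exp against 199.6, 509.8 and 889 CPM in Ctrl, and Prph was at 0 in all groups. The sums follow the highest markers: of the 4 neuron markers averaging 1 CPM or more in IHCs, 2 were higher and 2 lower in Exp, with Nefm 2-fold or more higher, Tubb3 2-fold or more lower and a median log2 ratio of 0.15. The part of these in the differences of the 10 genes was not tested. Markers of glia, mesenchyme, erythroid, immune and endothelial cells had median sums of 0 to 0.257 CPM in each group.

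The other taper genes had ratios under 2-fold in both cell types. Grxcr1, a protein with a glutaredoxin-like domain needed for normal stereocilia width and length, was at 227 CPM in Exp OHCs against 275 CPM in Ctrl OHCs (log2 ratio −0.27), and at 267 CPM in Exp IHCs against 396 CPM in Ctrl IHCs (−0.57). Single OHCs ran over 48.1, 206 and 888 CPM in Exp and 1.18, 252 and 884 CPM in Ctrl. Single IHCs ran over 116, 226 and 510.3 CPM in Exp and 134, 384 and 680.2 CPM in Ctrl. In IHCs most Exp cells were low in the Ctrl range, with 23.1% above the median Ctrl IHC.

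Grxcr2, its paralog, which localises at the stereocilia base with taperin, was at 678 CPM in Exp OHCs against 718 CPM in Ctrl OHCs (log2 ratio −0.08). Single OHCs ran over 139, 583 and 1880.0 CPM in Exp and 226, 642 and 1351 CPM in Ctrl. In IHCs it was at 443 CPM in Exp against 584 CPM in Ctrl, a log2 ratio of −0.40, or 1.32-fold lower. This modest ratio came from a shift of most cells. Single IHCs ran over 159.5, 434 and 1075 CPM in Exp and 283, 600.4 and 951 CPM in Ctrl, and the middle 50% of cells lay from 360.1 to 477 CPM in Exp against 509 to 665 CPM in Ctrl. Only 2 of 26 Exp IHCs (7.69%) were above the median Ctrl IHC. The ranges of the middle 50% of cells were apart for 1 of the 10 genes in this comparison and for 2.74% of all genes, and in OHCs for 0 of the 10 and for 2.75% of all genes, a description chosen after the values were seen.

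Rdx encodes radixin, an ezrin-radixin-moesin protein that links the membrane to actin along the taper. It was at 169 CPM in Exp OHCs against 193 CPM in Ctrl OHCs (log2 ratio −0.19), and at 153 CPM in Exp IHCs against 140.2 CPM in Ctrl IHCs (0.12). Single OHCs ran over 0, 147 and 516 CPM in Exp and 2.66, 186 and 518 CPM in Ctrl. Single IHCs ran over 0.0677, 135 and 350.2 CPM in Exp and 16.5, 126 and 236 CPM in Ctrl. Rdx was at 10 CPM or more in 96.4% of Exp OHCs against 95.3% of Ctrl OHCs, and in 88.5% of Exp IHCs against 100.0% of Ctrl IHCs, so that its lowest cells were in Exp. In Xist-positive cells the ratio was −0.29 in OHCs and −0.12 in IHCs, and in cells high in Gm15772 −0.25 and −0.11, lower in Exp in both types. In Y-positive cells it was −0.00 in OHCs and 0.64 in IHCs, and in cells low in Gm15772 −0.01 and 0.63. The direction in IHCs thus depended on the set of cells.

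Ptprq, a receptor-like phosphatase of the shaft connectors and taper, differed least. It was at 337 CPM in Exp OHCs against 340.4 CPM in Ctrl OHCs (log2 ratio −0.01), and at 341 CPM in Exp IHCs against 315 CPM in Ctrl IHCs (0.11). Single OHCs ran over 113, 325 and 655 CPM in Exp and 141, 311 and 657 CPM in Ctrl. Single IHCs ran over 184, 307 and 613 CPM in Exp and 120.1, 321 and 602 CPM in Ctrl. The ranges nearly coincided in OHCs and every cell had the transcript. Over the alternatives the ratio ran from −0.07 to 0.27 in OHCs and from −0.07 to 0.30 in IHCs, so that neither direction was kept.

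The group levels of these genes in the 2 hair cell types were within 2-fold in Ctrl cells. None of the 10 was 2-fold or more higher in Ctrl OHCs than in Ctrl IHCs, where 15.3% of genes were, and none was 2-fold or more lower, where 13.4% were. The shares of genes in this paragraph are over genes at 1 CPM or more, while all 10 averaged over 10 CPM. In the genotype comparisons the shares were smaller among genes at 10 CPM or more. Such shares are not given here, so these counts are not set against genes of like level. The log2 ratio of Ctrl OHCs over Ctrl IHCs ran from −0.53 for Grxcr1 to 0.59 for Eps8, with Capzb at 0.00. No gene of the 10 had cell ranges that were apart between Ctrl OHCs and Ctrl IHCs (0.0485% of genes) or between Exp OHCs and Exp IHCs (0.0542%). In the mutants, Eps8 was 2.40-fold higher in Exp OHCs than in Exp IHCs, a log2 ratio of 1.26 (1.22 to 1.30). In Xist-positive cells this ratio was 0.85 and in cells high in Gm15772 0.76, both under 2-fold. In Y-positive cells and in cells low in Gm15772 it was 5.32, with only 7 Exp IHCs in either set. Clic5, at 0.42 over all cells, was past 2-fold higher in Exp OHCs in each of those last sets. Eps8 was the one gene of the 10 that was 2-fold or more higher, where 14.0% of genes were, and none was lower by that limit, where 14.5% of genes were. The genotype ratio of Eps8 in OHCs minus that in IHCs was 0.67 (0.62 to 0.72), and for the other 9 genes this difference lay between −0.32 and 0.32. Over all cells 0 of the 10 reached a difference of 1 in either direction, where 30.6% of genes averaging 1 CPM or more did. For Eps8 the difference was 4.59 in Y-positive cells, 4.61 in cells low in Gm15772 and 1.12 in cells under 50 CPM of supporting cell markers, against 0.65 in Xist-positive cells and 0.39 in cells high in Gm15772.

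Most cells had most of the 10 genes. The median cell had 9.00 of them at 10 CPM or more in each group, and all 10 were so in 7 of 56 Exp OHCs (12.5%), 9 of 43 Ctrl OHCs (20.9%), 2 of 26 Exp IHCs (7.69%) and 9 of 38 Ctrl IHCs (23.7%). Clic5 and Eps8 were both at 10 CPM or more in 17 Exp OHCs against 29 Ctrl OHCs, and in 4 Exp IHCs against 20 Ctrl IHCs. Neither was so in 16 Exp OHCs against 4 Ctrl OHCs, and in 9 Exp IHCs against 2 Ctrl IHCs. Cells under 10 CPM of both were thus more frequent in Exp of either type, as were cells under 10 CPM of each gene alone. Whether the 2 were low together more often than these single shares would give was not tested.

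Across the cells of a group, which share depth, processing and possibly animals, the 45 pairs among the 10 genes had median Spearman correlations of −0.01 in Exp OHCs, 0.08 in Ctrl OHCs, −0.06 in Exp IHCs and 0.03 in Ctrl IHCs (n = 56, 43, 26 and 38 cells). The sign was the same in all 4 groups for 4 pairs. Eps8l2 and Twf2 had the highest mean, 0.20, with 0.23, 0.20, 0.15 and 0.24 in the same order of groups. These weak values are a description only.

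For the 3 genes 2-fold apart in either genotype comparison, the most similar patterns were sought among 5798 genes at 20 CPM or more in every group, by the mean over the 4 groups of the Spearman correlation across cells. Tprn was most like Cnih2 (0.41), Gpi1 (0.38) and Eid1 (0.38). Clic5 was most like Herc2 (0.33), Wwp2 (0.30) and Otof (0.29). For Eps8 they were Slc22a23 (0.36), Aak1 (0.31) and Tbc1d23 (0.30). Each is among the highest of 5798 values, and what the best of so many unrelated genes would reach was not worked out. The groups also differed, from 0.03 to 0.45 for Clic5 with Otof and from 0.07 to 0.58 for Tprn with Eid1. These genes are therefore a description only and no sign of a link.

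Of 13 further genes of the tip and length machinery, 11 averaged 1 CPM or more in OHCs and 12 in IHCs. In OHCs 3 were 2-fold or more higher in Exp and 1 lower, with a median log2 ratio of −0.14, and in IHCs 1 was higher and 1 lower, with a median of 0.20. Over all genes 18.4% were higher and 13.1% lower in OHCs, and 18.8% were higher and 11.7% lower in IHCs. The partners that carry Eps8 to the tip differed in OHCs, in opposite directions. Whrn, the scaffold whirlin, was at 181 CPM in Exp OHCs against 71.9 CPM in Ctrl OHCs (log2 ratio 1.33), and at 57.2 CPM in Exp IHCs against 96.0 CPM in Ctrl IHCs (−0.75). The Whrn ratio ran over the alternatives from 0.60 (high in Gm15772) to 1.97 (low in it) in OHCs, and from −1.26 to −0.10 in IHCs. Myo15a, the myosin XVa motor, was at 170.3 CPM in Exp OHCs against 350.5 CPM in Ctrl OHCs (−1.04), and at 461 CPM in Exp IHCs against 339 CPM in Ctrl IHCs (0.44). In Y-positive OHCs the Myo15a ratio was −0.86, and in those low in Gm15772 −0.70, while in IHCs its ratio ran from −0.03 to 0.97 over the alternatives. Myo3a, a class III myosin of the tips, was at 419.5 CPM in Exp OHCs against 74.0 CPM in Ctrl OHCs (2.50), and at 329 CPM in Exp IHCs against 187 CPM in Ctrl IHCs (0.81). The Myo3a ratio ran from 2.11 to 3.00 in OHCs and from 0.72 to 0.98 in IHCs.

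Of 15 genes of actin capping and turnover, 13 averaged 1 CPM or more in OHCs, of which 4 were 2-fold or more higher in Exp and 1 lower, with a median log2 ratio of 0.70, where 18.4% of all genes were higher and 13.1% lower. In IHCs 14 did so, of which 2 were higher and 1 lower, with a median of 0.48, where 18.8% of all genes were higher and 11.7% lower. Cap2, a cyclase-associated protein that recycles actin monomers, was at 95.9 CPM in Exp OHCs against 16.8 CPM in Ctrl OHCs (2.51), and at 145 CPM in Exp IHCs against 12.6 CPM in Ctrl IHCs (3.52). All Exp IHCs were above the median Ctrl IHC, but that was near 0, and the lowest Exp IHC had only 0.135 CPM. Over the alternatives the Cap2 ratio reached 4.24 in Xist-positive OHCs and 3.81 in OHCs high in Gm15772, and it ran from 3.21 to 10.30 in IHCs. The last was by the median of single cells, with the median Ctrl IHC near 0 at 0.112 CPM. Cap2 shares 2.9% of its exon bases with Gm35110 on the opposite strand, which was at 12.3 CPM in Exp OHCs against 1.34 CPM in Ctrl OHCs, so reads of the shared bases could belong to either. Actb, beta-actin, was at 689.5 CPM in Exp OHCs against 205 CPM in Ctrl OHCs (1.75), and at 591 CPM in Exp IHCs against 242 CPM in Ctrl IHCs (1.29). The size of the Actb ratio differed between sets of cells. In OHCs it was 0.93 in Xist-positive cells and 1.16 in cells high in Gm15772, against 2.39 in Y-positive cells and 2.43 in cells low in Gm15772. In IHCs it was 0.02 and 0.17, against 2.56 and 2.63, in the same order.

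Dstn, the actin-severing protein destrin, was at 543 CPM in Exp OHCs against 262 CPM in Ctrl OHCs (1.05), and at 387 CPM in Exp IHCs against 275 CPM in Ctrl IHCs (0.49). The Dstn ratio in OHCs was under 2-fold at 0.79 in cells low in Gm15772, 0.85 in cells under 50 CPM of supporting cell markers, 0.87 by the median of single cells, 0.89 in Y-positive cells and 0.99 with median-of-ratios factors. Pfn2, a profilin that supplies monomers, was at 60.1 CPM in Exp OHCs against 27.8 CPM in Ctrl OHCs (1.11), and at 59.0 CPM in Exp IHCs against 38.3 CPM in Ctrl IHCs (0.62). The Pfn2 ratio in OHCs was 0.49 in cells high in Gm15772 and 0.54 in Xist-positive cells, against 1.76 in cells low in Gm15772. Diaph1, a formin that lengthens filaments, was at 9.56 CPM in Exp OHCs against 21.1 CPM in Ctrl OHCs (−1.14), and at 10.7 CPM in Exp IHCs against 13.0 CPM in Ctrl IHCs (−0.29). Over the alternatives the Diaph1 ratio in OHCs ran from −1.28 to −0.66, the last in Xist-positive cells. Gsn, gelsolin, a severing and capping protein, had 0 counts in Exp IHCs against 75.5 CPM in Ctrl IHCs. With a floor of 3 counts over the Exp group that is at least 9179-fold lower, but 7 of the 38 Ctrl IHCs were at 10 CPM or more, and the highest had 1744 CPM. Gsn was therefore a transcript of a few Ctrl IHCs.

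Of 11 partners at the taper and rootlet, 9 averaged 1 CPM or more in each cell type. In OHCs 2 were 2-fold or more higher in Exp and 0 lower, with a median log2 ratio of 0.20. Of all genes 18.4% were higher and 13.1% lower. In IHCs 1 was higher and 0 lower, with a median of 0.12, where 18.8% of all genes were higher and 11.7% lower. The counts higher are near these shares. The 2 genes higher in OHCs are named because they passed the 2-fold limit. Msn, moesin, of the same family as radixin, was near 0 in OHCs, at 0.0333 CPM in Exp and 0.00250 CPM in Ctrl. Ezr, ezrin, the relative of radixin of microvilli, was at 384 CPM in Exp OHCs against 44.2 CPM in Ctrl OHCs (3.12), and at 471 CPM in Exp IHCs against 279 CPM in Ctrl IHCs (0.76). In Xist-positive OHCs the Ezr ratio was 2.06, in OHCs high in Gm15772 it was 1.98, and in those low in it 5.14. Slc9a3r1, the scaffold NHERF1 that binds ezrin and radixin, was at 137 CPM in Exp OHCs against 25.8 CPM in Ctrl OHCs (2.41), and at 33.4 CPM in Exp IHCs against 2.33 CPM in Ctrl IHCs (3.84). In Xist-positive OHCs the Slc9a3r1 ratio was 1.46, and without the 2 Ctrl OHCs under 10 CPM of Slc26a5 it was 3.19. In IHCs it ran from 2.85 to 6.83 over the alternatives, all higher in Exp. Rdx itself differed by less than 2-fold in either type. Ezr in OHCs and Slc9a3r1 in both differed by far more, but they were named for passing that limit, so the contrast is no separate result.

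**Figure D4:**
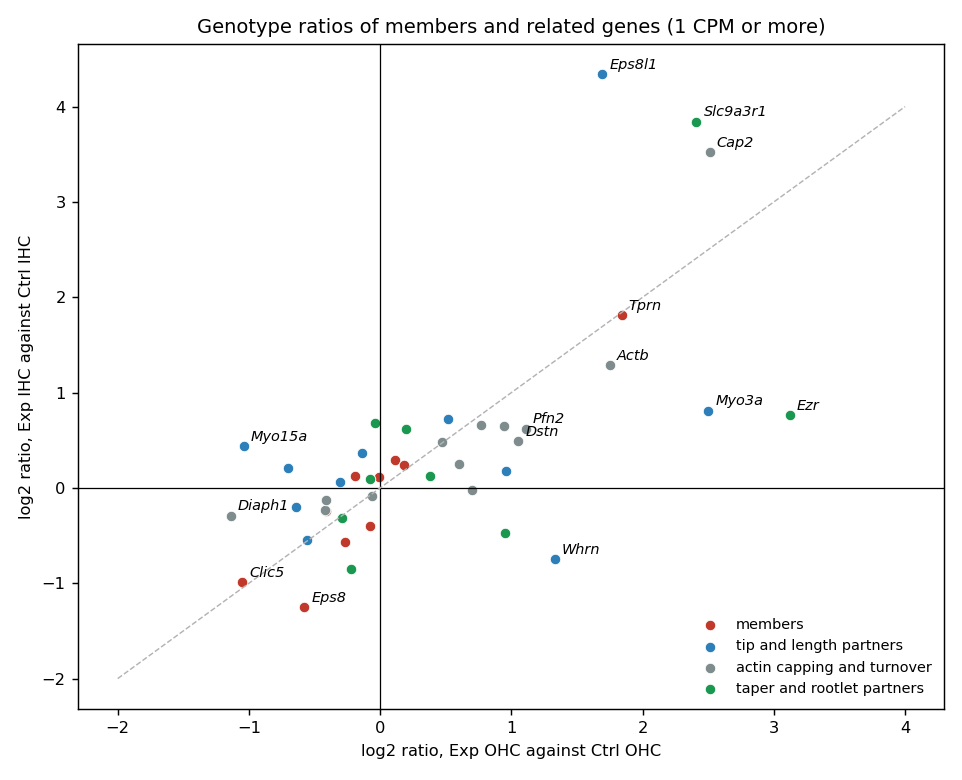
Log2 ratio of summed CPM, Exp over Ctrl, in OHCs (horizontal axis) and IHCs (vertical axis) for the 10 genes and the genes of the 3 related lists that averaged 1 CPM or more in both comparisons. Genes 2-fold or more apart are named and the dashed line marks equal ratios; Tprn (1.84 and 1.81) and Clic5 (−1.05 and −0.99) lie on it, Ezr lies far below it, and Eps8l1, shown there, averaged under 10 CPM.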

How the data were processed

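The authors deposited raw read counts per gene and cell, made by Smart-Seq full-length cDNA sequencing of hand-picked cells per the labels' protocols. Reads were aligned to mm10 and counted, with HISAT2 2.2.1, featureCounts 2.0.1 and SAMtools named in the submitters' processing notes. The annotation release, strand setting and way of assigning a cell to OHC or IHC are not given in the sources used here. Identifiers were matched to GENCODE M21 (GRCm38) for 55034 of 55291 genes. Counts were summed per group, scaled to CPM and compared as ratios over all genes at 1 CPM or more. No test was run, since no label names an animal. Shares used 10 CPM, and ratios against 0 counts used a floor of 3 counts. All 10 genes are named, and of the related lists those 2-fold apart at 10 CPM or more. The genes and lists were chosen with earlier results of these data known. Alternatives were edgeR 4.0.16 TMM and median-of-ratios factors, other totals, limits and sets of cells. The ratio calculation was tested on simulated data with Poisson counts drawn around group sums. These hold no spread between cells or animals, so they check the arithmetic only.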

Additional observations from a re-analysis of the deposited data

Results flagged for a closer look

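The genotype ratio of Rdx had opposite signs in the 2 cell types, with a log2 ratio of −0.19 in OHCs and 0.12 in IHCs. That of Ptprq also did, with −0.01 in OHCs and 0.11 in IHCs. All 4 ratios are small, and the difference between the cell types was not tested. In Xist-positive cells Rdx was at −0.29 in OHCs and −0.12 in IHCs, of the same sign, but in Y-positive cells at −0.00 and 0.64. Ptprq in OHCs kept its sign in 6 of 12 alternatives.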

How the results depend on the processing

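No paired analysis was possible because the numbers in the labels only name cells and the results come from no test. Of 480 log2 ratios of the 10 genes recomputed under the alternatives, 433 kept their sign, 47 changed it, and 20 moved by 1.5 times or more. The ratios that changed sign were at most 0.52 in size over all cells, the largest being Tprn in Exp OHCs against Exp IHCs, which was −1.49 by the median of single cells. In OHCs the count of genes lower in Exp was 2 by the median of single cells and 0 among cells Y-positive or low in Gm15772. In IHCs it was 2 under TMM, median-of-ratios factors, a total of protein-coding nuclear genes, the median of single cells, with the top cell of each group left out, a 1.5-fold limit, and among cells Y-positive or low in Gm15772. It was 0 among cells Xist-positive or high in Gm15772, and the count higher in Exp IHCs was 0 among cells high in it. For Ctrl OHCs against Ctrl IHCs, 1 gene was higher by the median of single cells and by a 1.5-fold limit. For Exp OHCs against Exp IHCs, 2 were higher by a 1.5-fold limit and among cells Y-positive or low in Gm15772, 0 in the opposite sets, and 1 was lower by the median of single cells. A genotype ratio differing by 1 or more between cell types was found for 2 genes by the median of single cells, and for 1 among cells Y-positive, low in Gm15772, or under 50 CPM of supporting cell markers. The cause was not tested. By the median of single cells the log2 ratios were 6.73 in OHCs and 8.72 in IHCs for Tprn, −1.94 and −2.30 for Clic5, and −2.46 and −8.33 for Eps8. The largest of these rest on medians near 0, so their size has little meaning. Those medians were 0.132 and 0.0937 CPM of Tprn in Ctrl OHCs and Ctrl IHCs, and 0.0727 CPM of Eps8 in Exp IHCs. Of 162 ratios of related genes at 2-fold, 147 kept that limit. Of 80 shares recomputed at 1 or 50 CPM, 15 left their interval. For the summed counts of the 10 genes the counting intervals were narrow. The spread between animals could not be measured.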
